A study of Bos taurus with 12 samples.

Results

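MicroRNA genes encode short RNAs that pair with messenger RNAs and lower their output. Each is transcribed as a longer precursor that folds into a hairpin, is cut by DROSHA and DICER1, and is loaded into an Argonaute protein. Many microRNA genes lie inside protein-coding genes and can be transcribed with them, so sequence next to a hairpin is not always the start of transcription. Methylation of CpG cytosines near a promoter is often linked to low transcription, but no RNA was measured here.

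The members are CpG cytosines (sites) that the authors' annotation placed in the promoter class of a microRNA gene, which means within 3 kb on either side of the annotated start. They were found by gene symbol and annotation class alone. Of 196275 listed sites, 344 met the rule, and they belonged to 144 microRNA genes. All 10676 promoter sites in the table include these 344, a share of 3.22%. A further set of sites was annotated to microRNA genes outside promoters, and with them the table held 6183 sites of 458 microRNA genes.

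Whole blood came from 12 dairy cows kept on the same farm. The Mastitis Susceptible Group (MSG) comprised 6 cows that were culled for mastitis complications within 1 year of sampling, when no such problem had been identified. The Mastitis Resilient Group (MRG) comprised 6 cows of similar age that remained in the herd. Mastitis is an inflammation of the udder, most often from infection. Blood mixes several kinds of white cells, the labels give no cell counts, and a different mixture of cells cannot be told apart from a different methylation within cells. Methylation was read by enzymatic conversion, in which unmodified cytosines end up as thymines and both methylated and hydroxymethylated cytosines stay cytosines. Where a cow carries a thymine in place of the cytosine, the base reads like an unmethylated one, and genotypes were not analysed here.

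Every listed site had been chosen by the authors on these same cows. In the authors' deposited table the smallest absolute difference was 25 percentage points and the largest q-value 0.01. A difference between MSG and MRG at a member is therefore a condition of being listed. Tests repeated on it are not independent evidence. Read depth per cow was not used, so precision rests on the spread between cows. Among the members 68 of 4128 values were missing, 281 sites had a value for all 12 cows, and no site had fewer than 5 cows in a group.

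The 344 sites covered 261 CpGs on 30 chromosomes. Chromosome 5 held the most, with 40 sites at 14 genes, and chromosome 26 followed with 26 sites at 3 genes. For 83 CpGs both strands were listed, and all 83 pairs had the same direction on both strands. The median gap between strands in the same cow was 5 points over 968 pairs of values. When the plus strand of such a pair stood at exactly 0 in a cow, the minus strand also stood at exactly 0 in 239 of 242 cases (98.8%). Of 243 zeros on the minus strand with a value on the plus strand, 239 (98.4%) were matched likewise.

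The annotated genes were hairpins of 46 to 115 bases, with a median of 74. Only 7 sites fell inside a hairpin, 169 lay upstream of the start and 168 lay downstream beyond the hairpin. By distance, 119 sites were within 1 kb, 88 at 1 to 2 kb and 137 at 2 to 3 kb. The share within 1 kb was 34.6%, beside 29.1% for 8059 promoter sites of other named genes. The farthest member was 2.98 kb from its start, and the nearest microRNA site outside the rule was at 3.01 kb. From 2.5 kb to the limit there were 76 sites, with a median absolute difference of 34.6 points, and the 50 microRNA sites from there to 3.5 kb had 36.1 points. In the names table of the assembly ARS-UCD2.0, all 144 symbols were found, and 107 of the hairpins lay inside a protein-coding gene.

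**Figure D1:**
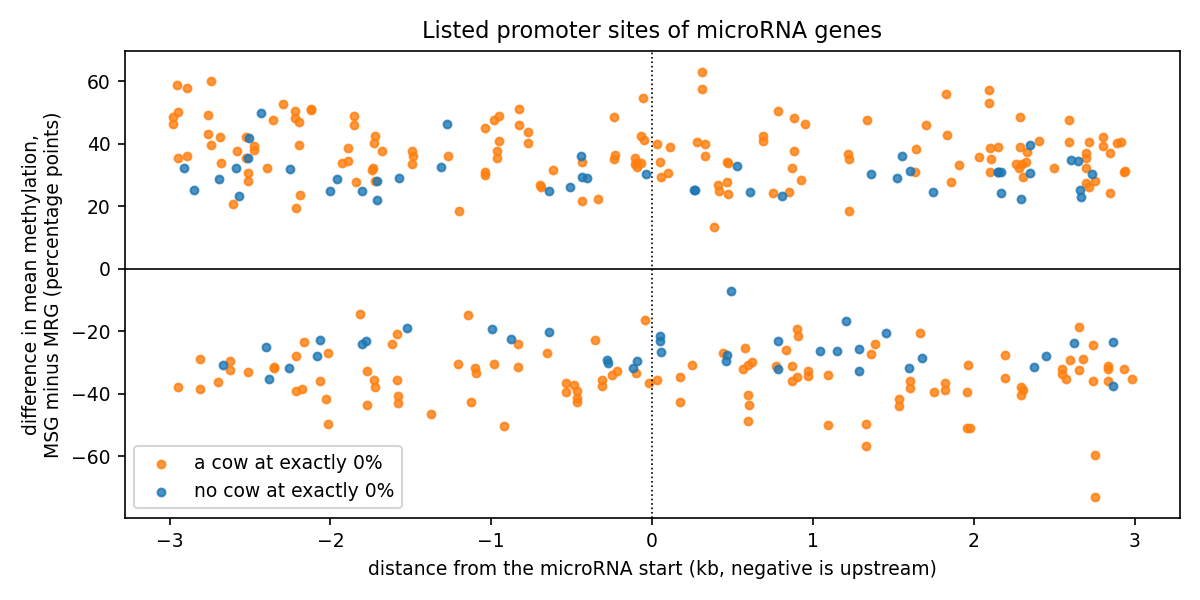
Difference in mean methylation between MSG and MRG (percentage points) against distance from the microRNA start (kb, negative is upstream) for the 344 listed promoter sites. Orange points are the 262 sites with at least 1 cow at exactly 0%, and blue points are the others. Sites of both directions lie along the whole window, and few points lie near 0, since sites were listed by the authors' own difference.

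In MSG, methylation was higher at 195 of the 344 sites (56.7%) and lower at 149. Over all listed sites the share was 52.7%, and over promoter sites of other genes it was 53.5%. The exact binomial interval for the microRNA share (95%, Clopper-Pearson) ran from 51.3% to 62.0% and took in both. It treats sites as independent, which neighbours are not. With sites closer than 1 kb averaged into 187 runs, 52.4% were higher in MSG, beside 53.0% for all listed runs. Within 1 kb of the start 64 of 119 sites were higher, at 1 to 2 kb 43 of 88, and at 2 to 3 kb 88 of 137.

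Averaged over the 195 sites higher in MSG, the cows of MSG stood between 63.8% and 80.9% (median 69.2%), against 28.9% to 44.3% in MRG (median 33.8%). Over the 149 lower sites, MSG cows stood between 36.1% and 46.6% (median 41.0%), against 63.9% to 80.6% in MRG (median 74.8%). These averages restate how the sites were listed and carry no test. In single genes, below, the cows of a group often stood far apart.

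Single values were spread widely. Of 4060 values, 23.3% were at or under 15%, 25.1% lay between 35% and 65%, and 35.2% were at or above 85%. The shares over promoter sites of other genes were 22.3%, 25.8% and 33.9%, so the microRNA sites resembled the listed promoter sites in general. At least 1 cow was at exactly 0 at 262 sites (76.2%), beside 77.7% for other promoter sites. Cows of 1 group had a median SD of 28.6 points at these sites, and the groups differed by a median of 33.7 points in size.

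**Figure D2:**
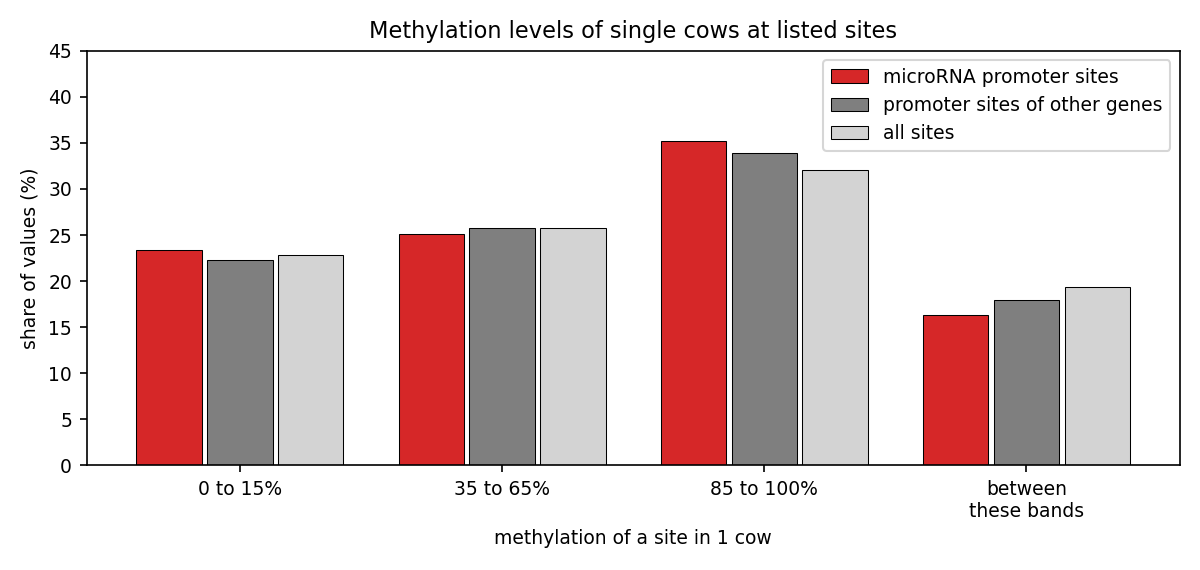
Share of single-cow values (%) in 3 bands of methylation and between them, for microRNA promoter sites, promoter sites of other genes and all listed sites. The microRNA bars (23.3%, 25.1% and 35.2%) lie close to those of the other sets.

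At an adjusted p of 0.05, limma's test of MSG against MRG passed 0 of the 344 sites and 0 (0%) of all 196275 sites over which the Benjamini-Hochberg adjustment ran. The lowest adjusted p among members was 0.0781. An unadjusted p under 0.05 in limma was reached by 191 members (55.5%), beside 51.9% of all sites, and in the exact permutation test by 126, with 0 past adjustment. When rows with a cow at exactly 0 were left out of the whole table, 49 of the 82 remaining members passed limma's test (59.8%), beside 73.1% of all remaining sites. With rows of at least 40 points only, 94 of 99 passed (94.9%), beside 94.1% of all such sites, and that subset is chosen on the difference being tested.

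The cows of the groups did not overlap at 8 of the 344 sites (2.33%), beside 2.36% of all sites. All 8 were higher in MSG, a direction in which 1.39% of all sites did not overlap, beside 0.971% in the other direction. They are named here after their values were seen and belonged to 7 genes: MIR141, MIR12037 with both strands of 1 CpG, MIR378B, MIR12053, MIR2453, MIR2468 and MIR7862. At MIR2468 the site 2.59 kb upstream had a lowest, median and highest value of 80%, 88.8% and 93.3% in MSG, against 46.7%, 51.7% and 78.6% in MRG. At MIR12053 the site 0.442 kb upstream ran from 92.9% to 100% in MSG (median 100%) and from 27.3% to 91.7% in MRG (median 68.0%). At MIR378B the site 2.005 kb upstream stood at 95.9% ± 4.74 in MSG, against 71.0% ± 14.4 in MRG (SD, n = 6 each). At these last 3 sites, picked for their lack of overlap, MSG cows sat in a narrow high range while MRG cows were scattered below it. The mean over all 5 listed sites of MIR2468, 3 higher and 2 lower in MSG, overlapped between groups. It ran from 52.3% to 78.2% in MSG and from 44.7% to 73.3% in MRG (limma adjusted p = 0.544).

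Each gene was then given 1 value per cow, the mean of its listed promoter sites. Of the 144 genes, 80 had a higher and 64 a lower mean in MSG, which is 55.6% higher beside 53.5% over all 3586 genes with a listed promoter site. The median signed difference was 10.1 points for microRNA genes and 10.6 for all genes. Without the sign it was 29.3 points for microRNA genes and 30.0 for all genes. No microRNA gene passed limma's test with adjustment over all 3586 genes, of which 0 (0%) passed (lowest adjusted p = 0.101). By limma 57 microRNA genes (39.6%) had an unadjusted p under 0.05, 36 higher and 21 lower in MSG, beside 43.9% of all genes. The exact permutation test also passed 0, with 49 at an unadjusted p under 0.05 and 0.0935 as the lowest adjusted p. Leaving out rows with a cow at exactly 0 gave 25 of 56 microRNA genes past limma's test (44.6%), beside 55.4% of all genes left. Rows of at least 40 points gave 34 of 45 (75.6%), beside 71% of all genes left.

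Many genes were covered thinly. A single listed site was all that 73 genes had (50.7%), while 30 had 2 and 41 had 3 or more. Of 55 genes with at least 2 CpGs, 17 had all sites higher in MSG, 16 had all sites lower and 22 (40%) were mixed, beside 34.5% mixed over all 1320 such genes. In the 41 genes with 3 or more sites, the spread between sites within a cow had a median of 14.1 points and the spread between cows 25.6 points. The cows differed more than the sites in 22 of these 41 genes.

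**Figure D3:**
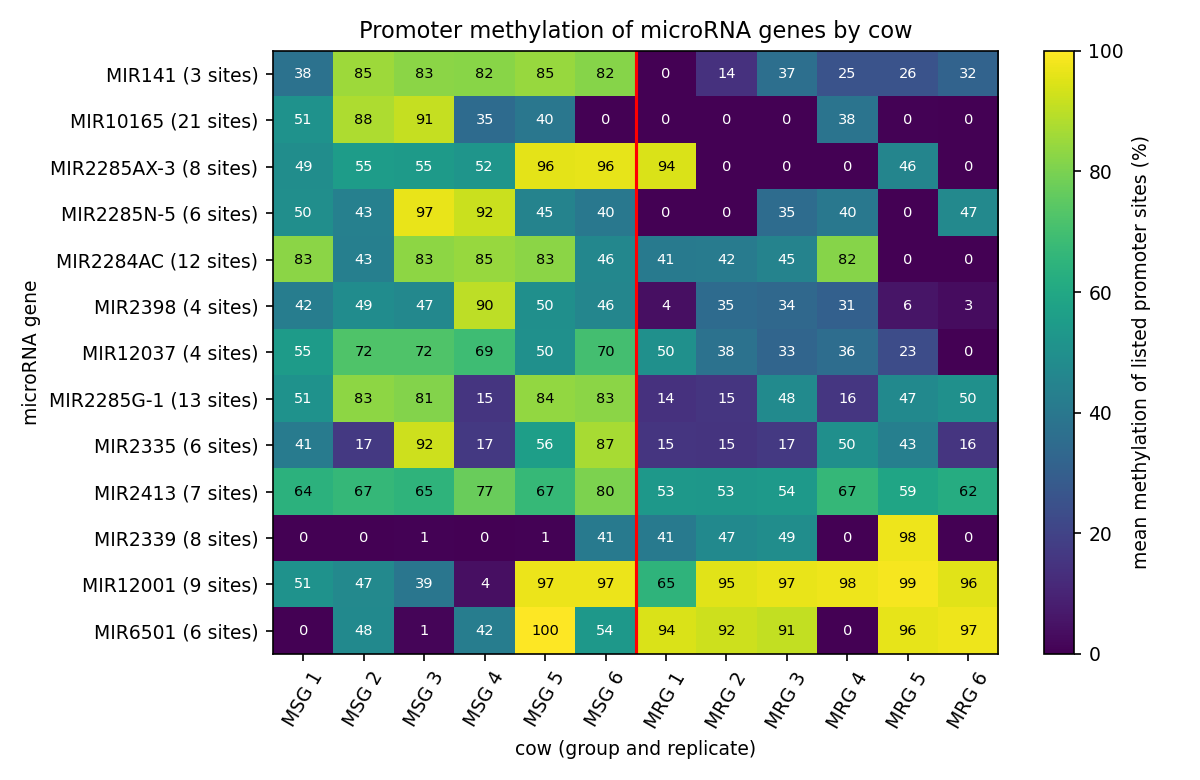
Mean methylation (%) of the listed promoter sites in each of the 12 cows for 13 microRNA genes, the 10 with the most sites and 3 whose groups did not overlap. MSG cows are left of the red line and MRG cows right of it. MIR141 has the largest difference of group means of the 13, with MSG cows from 37.6% to 85.3% and MRG cows from 0% to 36.6%.

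MIR141 had the largest difference of group means among the 144 genes. It belongs to the miR-200 family, which in human and mouse cells represses the transcription factors ZEB1 and ZEB2 and helps to keep the epithelial state. Its 3 listed sites lay on chromosome 5 (hairpin 103498826 to 103498915, ARS-UCD1.2), 0.278 to 0.309 kb past the start. The gene mean had a lowest, median and highest value of 37.6%, 82.5% and 85.3% in MSG, against 0%, 25.5% and 36.6% in MRG. The groups did not overlap, though MSG replicate 1 lay just above the highest MRG cow. MIR141 averaged 75.8% ± 18.7 in MSG, against 22.3% ± 13.3 in MRG (SD, n = 6 each). The difference was 53.5 points (SE 11.5, limma adjusted p = 0.101). All 3 sites had a cow at exactly 0. In the names table the neighbouring protein-coding genes were PHB2 and PTPN6, the second of which encodes the phosphatase SHP-1 of blood cell signalling. Of 10 listed sites of any gene within 20 kb of the hairpin, 3 were higher in MSG, and these were its own.

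Among the genes with at least 2 listed sites, MIR12037 and MIR2398 were the others without overlap. At MIR12037, inside the mineralocorticoid receptor gene NR3C2 on chromosome 17 (9646778 to 9646843), the 4 sites averaged 50.03%, 69.7% and 72.5% (lowest, median, highest) in MSG, against 0%, 34.2% and 50% in MRG. The lowest MSG cow and the highest MRG cow differed there by only a few hundredths of a point, so the separation was a near tie. The separation came from the CpG 2.59 kb past the start, where MSG cows stood between 37.5% and 76.9% on either strand while 5 of the 6 MRG cows were at exactly 0. At MIR2398, inside PCM1 on chromosome 27 (19351413 to 19351491), the 4 sites averaged 42.3%, 47.7% and 89.95% in MSG and 3.33%, 18.3% and 35% in MRG. PCM1 encodes a scaffold protein of centriolar satellites. In MIR2398, 5 MSG cows lay between 42.3% and 49.8%, and only MSG replicate 4 was high. For both genes limma's adjusted p was 0.101, and the adjusted p of the exact permutation test was 0.0935. The lack of overlap was the reason for naming them and fixes their exact p at the smallest value that regrouping the cows can give. Groups did not overlap in 5 of the 144 genes (3.47%), beside 2.57% of all 3586 genes, and the other 2 were MIR378B and MIR12053 with 1 site each. All 5 were higher in MSG, a direction in which 1.65% of all genes did not overlap.

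MIR10165 carried 21 listed sites, the most of any microRNA gene, at 11 CpGs spread over 3.64 kb of chromosome 26 (hairpin 43710610 to 43710696), between CPXM2 and the sulfotransferase gene CHST15. All 21 were higher in MSG. Its lowest, median and highest cow stood at 0%, 45.4% and 91.3% in MSG, against 0%, 0.125% and 38.4% in MRG. One MSG cow was at the level of the MRG cows, and 1 MRG cow (replicate 4) was at the level of the middle MSG cows, so the groups overlapped. Sites agreed closely within a cow, with a median spread of 5.11 points, against 34.5 points between cows. The direction of the difference went beyond the promoter window, where single cows were not compared. Of 75 listed sites within 20 kb of the hairpin, its own 21 included, 74 were higher in MSG. The difference was 44.3 points (SE 14.7, limma adjusted p = 0.101), and all 21 sites had a cow at exactly 0.

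Several genes inside host genes showed the same kind of steps between cows. MIR2284AC lies in MTUS1 on chromosome 27, and its 12 sites averaged 43.2%, 82.7% and 84.5% in MSG against 0%, 41.1% and 81.7% in MRG. All 30 listed sites within 20 kb, its own 12 included, had its direction. MIR2285AX-3 lies in SPATA7, a gene of the photoreceptor cilium, and its 8 sites averaged 48.9%, 55.0% and 96.2% in MSG and 0%, 0% and 94.3% in MRG. In MIR2285AX-3, 4 MRG cows were at exactly 0, while no MSG cow was under 48.9%. MIR2285N-5 lies in the lysophosphatidic acid receptor gene LPAR1 on chromosome 8, and its 6 sites averaged 39.96%, 47.2% and 96.6% in MSG against 0%, 17.6% and 47.2% in MRG. In each of MIR2284AC, MIR2285AX-3 and MIR2285N-5 the groups overlapped, and limma's adjusted p was 0.101 to 0.103.

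Other genes with many sites pointed the other way. MIR12001 (9 sites, in ANKRD54 on chromosome 5) averaged 4.04%, 49.1% and 97.2% in MSG against 65.1%, 96.1% and 98.6% in MRG. All 9 sites were lower in MSG, and 5 of the 6 MRG cows were above 95%. MIR2339 (8 sites, in the tRNA processing gene ELAC2 on chromosome 19) averaged 0%, 0.284% and 40.8% in MSG against 0%, 44.0% and 97.6% in MRG. In MIR2339, 5 MSG cows were near 0, as were 2 MRG cows, and without MRG replicate 5 the difference was -20.4 points. MIR6501 (6 sites, in the nuclear speckle gene SON on chromosome 1) averaged 0%, 44.98% and 100% in MSG against 0%, 93.3% and 97.3% in MRG. A single MRG cow of MIR6501, replicate 4, was at 0 while the other 5 were above 90%. The differences of these 3 genes were -35.5, -32.1 and -37.6 points, with limma's adjusted p at 0.104, 0.114 and 0.118.

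In 3 of the genes with the most sites, neighbouring CpGs went in opposite directions. MIR2285G-1 lies on chromosome 18 inside NLRC5, which encodes the activator of MHC class I genes. In MSG 11 of its 13 sites were higher, with a lowest, median and highest cow of 0%, 90.1% and 98.3% in MSG against 0%, 23.0% and 49.9% in MRG. The 2 others, both strands of 1 CpG 2.62 kb upstream, stood at 0%, 41.7% and 92.3% in MSG against 52.7%, 75.6% and 100% in MRG. The order of 7 cows was reversed between the 2 kinds of site. MSG replicates 2, 3 and 6, at 85.7% or more on each of the 11, were at exactly 0 on the CpG of opposite direction. MSG replicate 4 and MRG replicates 1, 2 and 4, at 0 on all of the 11 that had a value, were at 84.6% to 100% there. The other 5 cows were not reversed. MSG replicate 5 averaged 84.1% on the 11 and 83.3% on the 2, MSG replicate 1 averaged 43.8% and 90.2%, and MRG replicates 3, 5 and 6 averaged 46.0% to 49.9% on the 11 and 52.7% to 58.3% on the 2.

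MIR2413 lies on chromosome 3 next to CSF1, the gene of macrophage colony-stimulating factor. Its gene mean stood at 64.3%, 66.7% and 80.2% in MSG against 53.0%, 56.3% and 66.7% in MRG, with only 3 MSG cows at or under the highest MRG cow. That mean joined CpGs of opposite direction. A set of 5 sites 1.36 to 2.35 kb past its start stood at 53.6%, 90.6% and 95.7% in MSG against 40.4%, 49.2% and 85.4% in MRG. The other 2, at 0.483 and 0.533 kb upstream, stood at 0%, 20.7% and 100% in MSG against 29.2%, 72.8% and 95.5% in MRG. The gene mean differed by 12.1 points (SE 9.44, limma adjusted p = 0.245, exact permutation p = 0.00866 before adjustment). Limited to sites within 1 kb of the start, the mean of MIR2413 differed by -38.3 points (limma adjusted p = 0.0970). With rows holding a cow at exactly 0 left out it differed by 32.3 points (limma adjusted p = 0.0393), and with strands averaged by 3.38 points. MIR2335 (6 sites, in GLOD4 on chromosome 19) had 5 sites higher in MSG (0%, 52.5% and 98.8%, against 0%, 0% and 45.9% in MRG) and 1 lower (27.3%, 47.8% and 100%, against 50%, 91.3% and 100% in MRG). The lower site of MIR2335 was the only one without a cow at 0, and on it alone the difference was -24.1 points (limma adjusted p = 0.0785). Over all listed sites limma's adjusted p was 0.103 for MIR2285G-1, 0.245 for MIR2413 and 0.140 for MIR2335. With rows of at least 40 points only, it was 0.0337 for MIR2285G-1 and 0.0453 for MIR2335.

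Some microRNAs with known roles in blood had few listed sites. Of 79 immune and blood cell microRNA genes in the names table, 7 had a listed promoter site (8.86%), 9 sites in all. Over all 1032 microRNA symbols in that table, 144 had one. By gene mean 5 were higher and 2 lower in MSG, and 0 passed limma's test. Their median signed difference was 29.3 points, beside 10.6 for all genes. A signed median moves with the share of genes that were higher. In size alone, without the sign, the median difference over all genes was 30.0 points. The 2 lower ones were MIR144 and MIR451, neighbours on chromosome 19 whose lowest coordinates are 162 bases apart (20238525 for MIR451). They form the erythroid microRNA cluster. In mouse and zebrafish, miR-451 is unusual in being cut by AGO2 and not by DICER1. The site of MIR144, 2.4 kb upstream, stood at 40%, 78.6%, 44.4%, 91.7%, 87.5% and 40% in MSG replicates 1 to 6. The MRG replicates 1 to 6 stood at 72.7%, 91.7%, 76.9%, 90.9%, 100% and 100%.

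The CpG of MIR451 lay more than 3 kb from that of MIR144 and showed the same 3 cows. On its minus strand MSG replicates 1, 3 and 6 stood at 46.2%, 58.3% and 56.5%, while the other MSG cows and all 6 MRG cows were at 100%. Its plus strand stood at 60%, 29.4% and 42.9% in those 3 cows and at 92.3% or more in every other cow with a value. MIR451 averaged 74.4% ± 28.2 in MSG, against 99.4% ± 1.57 in MRG, and MIR144 averaged 63.7% ± 24.8 in MSG, against 88.7% ± 11.5 in MRG (SD, n = 6 each). By limma the adjusted p was 0.118 for MIR451 and 0.116 for MIR144. None of these 3 sites had a cow at 0, and the other 3 MSG cows stood within the MRG range at both genes. Of 16 listed sites within 20 kb of the MIR451 hairpin, its own 2 included, only 5 were lower in MSG.

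The other immune and blood cell genes were higher in MSG. MIR342, inside the actin regulator gene EVL on chromosome 21, gives a microRNA abundant in lymphocytes. Its 1 site stood at 42.9%, 69.4% and 100% in MSG against 6.25%, 44.2% and 61.5% in MRG. MIR10B lies in the HOXD cluster, inside HOXD4, and its site 0.51 kb upstream stood at 75%, 83.2% and 94.7% in MSG against 35.3%, 55% and 75% in MRG. The groups met at 75% at MIR10B, and no cow was at 0 at either gene. The let-7 family, which represses LIN28 and HMGA2, was represented by MIRLET7A-3 and MIRLET7C. MIRLET7A-3 stood at 0%, 49.9% and 97.5% in MSG, against 0%, 0% and 53.5% in MRG. MIRLET7C stood at 54.5%, 80% and 100% in MSG, against 0%, 44.2% and 85.7% in MRG. MIR212, processed from the same transcript as miR-132, stood at 36.4%, 96.2% and 100% in MSG against 0%, 50% and 91.7% in MRG, where 1 cow had no value. The limma adjusted p of these 5 genes was 0.103 to 0.148.

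**Figure D4:**
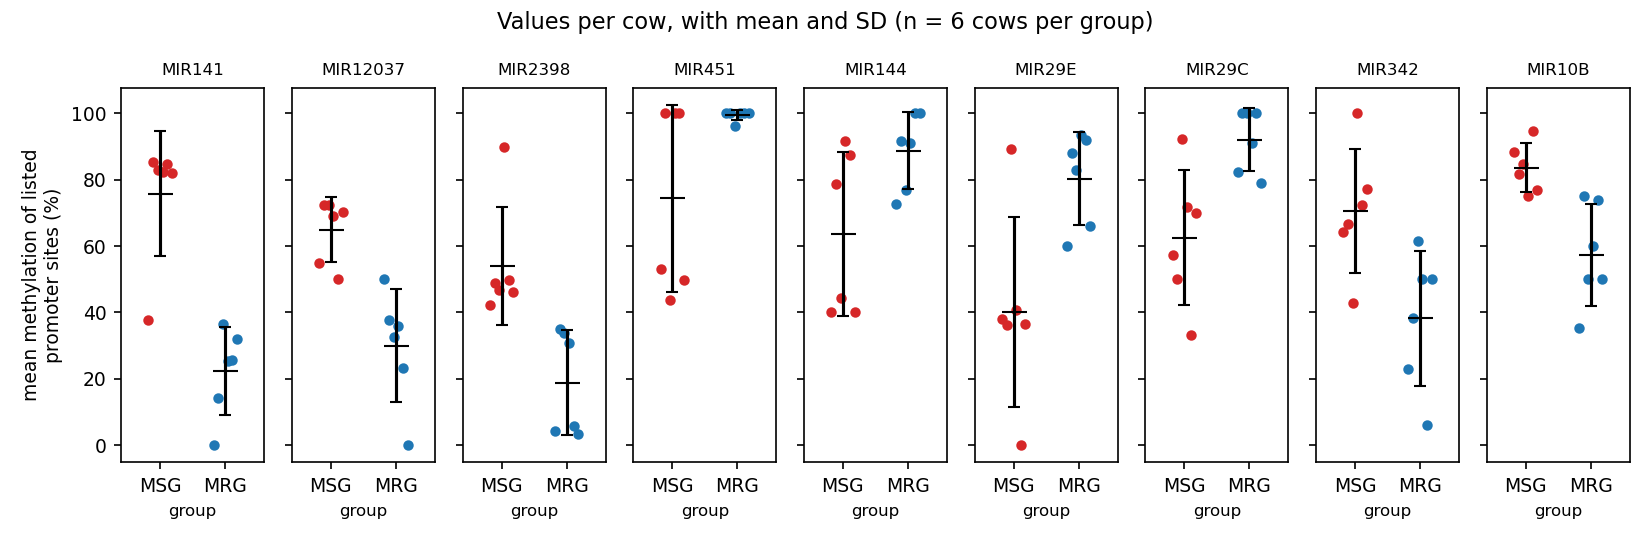
Mean methylation (%) of the listed promoter sites per cow for 9 microRNA genes, MSG left and MRG right in each panel. Points are cows, and the bars are the mean and SD (6 cows per group). MIR141 has 5 MSG cows above 80%, and in MIR451 and MIR144 the same 3 MSG cows lie low, from 40% to 53.1%, with all other cows at 72.7% or more.

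MicroRNAs known to target DNA methylation enzymes or chromatin modifiers numbered 3 with listed promoter sites, of 15 in the names table, and 0 passed limma's test. The miR-29 family represses DNMT3A and DNMT3B in human cells, and both of its listed genes were lower in MSG. MIR29E (chromosome 16, 75660370 to 75660459) averaged 0%, 37.2% and 89.3% over 3 sites in MSG against 60%, 85.3% and 93.5% in MRG, a difference of -40.2 points (SE 13.3, limma adjusted p = 0.101). MIR29C, on the same chromosome (75577606 to 75577693), had 1 site 0.093 kb upstream. That site stood at 33.3%, 63.6% and 92.3% in MSG against 78.9%, 95.5% and 100% in MRG (limma adjusted p = 0.103). MSG replicate 3 was the highest and MSG replicate 5 the lowest MSG cow at both. At each gene 5 of the 6 MSG cows lay below the lowest MRG cow. MIR101-1, whose product represses the histone methyltransferase EZH2 in human cells, stood at 48.4%, 97.8% and 100% over both strands of 1 CpG in MSG against 0%, 55.3% and 100% in MRG.

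Of the 26 microRNA genes on the mammary and milk list, MIR141 and MIR212 had listed sites, both already given, and both were higher in MSG. Of the 45 genes of the imprinted DLK1-DIO3 cluster, 2 had 1 site each. MIR493 stood at 50%, 96.4% and 100% in MSG against 15.8%, 47.7% and 100% in MRG, and MIR370 at 81.8%, 92.8% and 100% against 40%, 46.2% and 91.7%, with 1 MRG cow missing. Neither site had a cow at 0, and limma's adjusted p was 0.114 for MIR493 and 0.105 for MIR370.

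The MIR2284 and MIR2285 genes form a large family found in cattle and other ruminants, with many near-identical copies. They made up 35 of the 144 genes (24.3%), beside 18.5% of the 1032 microRNA symbols in the names table. Of their 90 promoter sites 60 were higher in MSG (66.7%), beside 53.1% of the 254 sites of other microRNA genes. By gene the family split 20 higher to 15 lower, with a median signed difference of 7.67 points beside 12.1 for the other 109 genes. The genes MIR2285G-1, MIR2284AC, MIR2285AX-3 and MIR2285N-5 held 37 of the 60 higher sites. No test of these shares was made. A cow stood at exactly 0 at 84.4% of the family's sites and at 73.2% of the others.

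The 7 sites inside hairpins belonged to MIR2284Y-3, MIR2285AX-3, MIR2303, MIR2408, MIR2425 and, with both strands of 1 CpG, MIR584-5. At MIR2285AX-3 the site stood at 59.4% ± 24.5 in MSG, against 19.4% ± 34.7 in MRG. At MIR2408 it stood at 26.4% ± 43.0 in MSG, against 62.0% ± 36.8 in MRG (SD, n = 6 each). By limma the adjusted p of the 7 ran from 0.0847 to 0.195.

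A pair of further microRNA clusters held sites at neighbouring genes, and they are named here after their values were seen. In human cells miR-192, miR-194 and miR-215 are induced by p53. MIR194-1 and MIR215 lie on chromosome 16 within the mitochondrial tRNA synthetase gene IARS2, their lowest coordinates 287 bases apart. They differed by -31.0 and -27.3 points. MIR192 and MIR194-2 lie on chromosome 29 within the endocytic recycling gene EHD1, their lowest coordinates 223 bases apart. They differed by -26.5 and -30.7 points. MIR194-1 stood at 54.9% ± 39.3 in MSG, against 85.8% ± 20.4 in MRG, and MIR194-2 at 63.8% ± 32.6 in MSG, against 94.4% ± 9.76 in MRG (SD, n = 6 each). All 4 genes overlapped between groups, with limma's adjusted p at 0.107 to 0.252. The most negative gene mean, also singled out afterwards, was MIR582 in PDE4D, a cAMP phosphodiesterase gene, at 21.7% ± 25.1 in MSG, against 74.9% ± 26.4 in MRG (SD, n = 6 each). By limma its p was 0.00167 and its adjusted p 0.101, and 2 of the 6 MSG cows lay above the lowest MRG cow.

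The remaining genes outside the naming rule numbered 119, with 220 sites and at most 6 in 1 gene. By gene mean 62 were higher and 57 lower in MSG, with a median signed difference of 4.87 points and a range of -53.2 to 49.9.

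Genes that make and use microRNAs had few listed promoter sites. Of 32 such genes, 16 had a listed site of any class, 109 in all, of which 64 were higher and 45 lower in MSG. Of these 109 sites 1 was in a promoter, beside 10676 of all 196275 listed sites. The median signed difference over these sites was 23.7 points, beside 22.7 over all sites and 24.9 over the members. Without the sign, the median was 32.7 points over all sites and 33.7 over the members. None passed limma's test, and 35 (32.1%) had an unadjusted p under 0.05, beside 51.9% of all sites. TNRC6B, a scaffold of the silencing complex, had the most, with 34 sites, of which 14 were higher and 20 lower. Only 13 of the 34 lay inside the gene. Averaged over sites of both directions, TNRC6B stood at 48.9% ± 9.81 in MSG, against 59.2% ± 8.11 in MRG (SD, n = 6 each).

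The authors' second table lists windows of 500 bases (tiles). None of its 1227 tiles was in the promoter class of a microRNA gene, although 52 tiles were in promoters of other genes or unnamed ones, and none of the 344 sites lay inside a listed tile.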

How the data were processed

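Blood DNA of 12 cows (6 MSG, 6 MRG) was analysed. Per the labels' protocols, conversion used TET2, T4-BGT and APOBEC3A. The submitters' processing notes list ChIPseeker 1.32.1, DRAGEN, Bismark and fastp 0.23.1 without roles, and the build ARS-UCD1.2. The authors deposited percent methylation per cow, a p-value and q-value, and a signed score (the difference in percentage points), per the file headers. How the authors tested the groups is not stated in the labels. The tile table held 36 columns of read numbers whose names carry no cow, and these were not used, so depth is unknown for each value. Differences printed here are unweighted means over cows, MSG minus MRG, and can fall under the authors' threshold.

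limma 3.58.1 in R 4.3.3 was fitted to percent methylation, first over all sites and then over per-cow means of each symbol's promoter sites (3586 symbols), two-sided, with no covariate and with Benjamini-Hochberg adjustment over the whole table. The threshold was 0.05. An exact permutation of the cows between groups was the alternative. With 200 of 3586 simulated gene means changed, limma recovered 0% of differences of 25 or 35 points and 37.5% of 50 points. With 200 of 196275 simulated sites changed, it recovered 0.5% of differences of 50 points. Every listed site was chosen by its difference, so these rates do not say how often the reported tests find one. The planned test of promoter tiles had nothing to test. Replicate numbers only name cows within a group. Each sample is 1 cow, and p-values measure the spread between cows.

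The members and gene lists were chosen with earlier results of these data known. Values by cow are given for the 10 microRNA genes with the most promoter sites and for those with at least 2 sites and no overlap between groups. Genes of the lists are given by lowest, median and highest cow. Host and neighbouring genes come from the RefSeq names table of ARS-UCD2.0, from which no coordinates were taken. Alternatives were another scale, a promoter of 1 kb, complete rows, rows with no cow at exactly 0, strands averaged, differences of at least 40 points, and each cow left out.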

Additional observations from a re-analysis of the deposited data

Results flagged for a closer look

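In 25 named genes the cow farthest from its group was examined, 50 groups in all, and 9 held a cow that stood apart. No number to expect is given, because many gene means lay at or near 0% or 100%. Cows stood apart when the gap to the next cow was a large share of the group's range. In MSG these were replicate 1 at MIR141 (37.6%, the others 82.0% to 85.3%), replicate 1 at MIR101-1 (48.4%, the others 92.1% to 100%) and replicate 1 at MIR493 (50%, the others 86.7% to 100%). They were also replicate 4 at MIR2398 (89.95%, the others 42.3% to 49.8%) and replicate 6 at MIR2339 (40.8%, the others 0% to 0.694%). In MRG they were replicate 4 at MIR10165 (38.4%, the others 0% to 0.397%), replicate 4 at MIR6501 (0%, the others 90.7% to 97.3%), replicate 1 at MIR12001 (65.1%, the others 95.3% to 98.6%) and replicate 3 at MIR451 (96.2%, the others all at 100%).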

How the results depend on the processing

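With rows holding a cow at exactly 0 left out, 49 sites (59.8%) and 25 genes (44.6%) passed limma's test, beside 73.1% of all sites and 55.4% of all genes left. With differences of at least 40 points the counts were 94 sites (94.9%) and 34 genes (75.6%), beside 94.1% and 71% of all such sites and genes. Of the microRNA sites of that size 70.7% were higher in MSG, beside 50.9% of all sites of that size. That share counts neighbouring sites separately and takes in sites whether or not they passed. Of the 34 genes that passed, a different set, 21 were higher. The subset of at least 40 points is chosen on the tested difference. The cause of the change without rows with a cow at 0 was not tested. Under the exact permutation test, the log2 scale, the 1 kb promoter, complete rows, averaged strands and each cow left out, the counts of sites and of genes stayed at 0. The share higher in MSG was 56.7% to 57.0% with a cow left out. Over 13 genes and 234 alternatives, 220 results kept their direction and side, 12 passed (all under these same 2 settings), and 2 reversed: MIR2413 at -38.3 points in the 1 kb promoter and MIR2335 at -24.1 points without rows with a cow at 0. No paired analysis was possible because replicate numbers were given in record order and pair no cows. Settings that left a gene no site gave no value, and none could be run on promoter tiles of microRNA genes, of which there were 0. Without depth, single values cannot be weighed by their reads.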

Other observations

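Outside promoters, 31 tiles were annotated to 15 microRNA genes, the closest 3.68 kb from its start. Sites annotated to microRNA genes elsewhere comprised 3390 distal intergenic and 2367 intronic sites, so 5.56% of all microRNA sites were the promoter sites described here. The gene named for such sites is the nearest one in the authors' annotation. Among genes that make or use microRNAs, and named after their values were seen, the helicase gene DDX17 had all 11 of its listed sites higher in MSG. They stood at 96.9% ± 1.65 in MSG, against 69.5% ± 29.6 in MRG (SD, n = 6 each). None of these 11 sites lay inside DDX17 or in its promoter class, so they do not describe methylation of the gene itself. DHX9, another helicase gene, had all 8 of its listed sites higher in MSG, 3 of them inside the gene. They stood at 80.9% ± 20.1 in MSG, against 48.3% ± 32.3 in MRG. AGO4, an Argonaute gene, had all 5 lower and inside the gene, with every MSG cow averaging 0%, against 24.5% ± 40.2 in MRG. DICER1 had 5 higher and 8 lower in MSG, and 6 of its 13 sites lay inside the gene. None of these sites passed limma's test.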
